A study of Mus musculus with 8 samples.

Results

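The distal zinc finger gene cluster of mouse chromosome 4 was taken as the 5 kb bins whose positions run from 145000000 to 147895000 in the mm10 build, which is 580 of the 31301 positions of the chromosome 4 table, or 2.9 Mb. The bins were chosen by position alone. Mouse embryonic stem cells were profiled by Repli-seq, in which newly made DNA is labelled with the nucleotide analog BrdU, cells are sorted into early and late S phase, and the labelled DNA of both fractions is sequenced. The control group was the JM8N4 line, labelled control with no further genotype. The deletion group lacked a Klf4 enhancer. Klf4 encodes a pluripotency transcription factor and lies on the same chromosome. Both groups received the same 2 h BrdU label with no other treatment named, and 40000 sorted cells went into each fraction. Each group had 2 timing profiles, numbered 1 and 2, and each profile came from 1 early and 1 late library, 8 libraries in all. Separate cultures or clones are not stated in the labels for the 2 profiles of a group. The p-values then measure only the spread between these profiles, which may be technical.

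The deposited table holds 1 timing score per position and profile, scaled by its authors to a common interquartile range, which was 4.60 in each profile. The score has no stated unit. Higher scores were read as earlier replication, because 81.1% of the 1301 measured protein-coding genes but 45.7% of the 30659 measured positions had a mean score above 0. No read counts are given, which leaves their depth unknown. Over the chromosome, the median score was -0.79 in control 1, -0.37 in control 2, -0.73 in deletion 1 and -0.21 in deletion 2, so profiles with number 2 lay higher in both genotypes.

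KRAB zinc finger proteins bind DNA through arrays of zinc fingers and recruit the co-repressor TRIM28, which brings in enzymes that place repressive histone marks and DNA methylation. Many of them silence transposable elements, and in embryonic stem cells this system keeps endogenous retroviruses in check. Their genes lie in tandem clusters that grew by repeated duplication and differ between species and strains. Early replication generally accompanies gene-dense, active chromatin, while gene-poor and lamina-associated chromatin generally replicates late.

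RefSeq annotation of GRCm38.p6, the assembly on which mm10 is based, placed 89 genes in the region. Of these, 25 were protein-coding, 8 were long non-coding RNAs and 56 were pseudogenes, among them 6 pseudogenes of the Vmn2r pheromone receptor family. By symbol, 17 of the 25 protein-coding genes were zinc finger genes, from Zfp990 at chr4:145510759-145538251 to Zfp933 at chr4:147822986-147849126. The annotation used here gives no protein domains, so it does not show which of the 17 encode a KRAB domain. The label of a zinc finger cluster held for the 468 bins from 145510000 to 147845000, which span the first to the last of these genes. The 102 bins before them hold Vps13d, Tnfrsf1b, Tnfrsf8 and Gm42346, and the 10 bins after them hold Miip, Fv1 and Mfn2. The region had 8.62 protein-coding genes per Mb, against 8.49 over the whole table.

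The promoters of the zinc finger genes showed how alike the copies are. The RefSeq table of promoters, each from 250 bases before to 50 bases after a listed start site, held 16 promoters of 13 of the 17 genes. A start site need not be the end of the gene's span. That of Rex2, for example, lies inside a span that begins at 146973610. Zfp978, Zfp990, Zfp991 and Zfp992 were not matched. Zfp600 had promoters at 146156577 and 146157440, and that of Rex2 was 99.7% identical to the former and 48.3% to the latter. The former lies 0.865 Mb from that of Rex2 and is the Zfp600 promoter printed below. The promoter of Zfp979, also known as Ssm1b, was 96.7% identical to this Zfp600 promoter at a distance of 1.49 Mb. The promoters of Zfp600, Rex2 and Zfp979 are shown with that of Zfp933, the last zinc finger gene. The Zfp933 promoter stood apart with 48% identity to the printed one of Zfp600. All 4 are written 5′ to 3′ on the gene's strand, at chr4:146156577-146156876 (plus, Zfp600), chr4:147021600-147021899 (plus, Rex2), chr4:147642459-147642758 (minus, Zfp979) and chr4:147848369-147848668 (minus, Zfp933). In the promoter of Zfp600 capitals mark bases not aligned to an identical base of Rex2, and in Rex2 and Zfp979 they mark bases not aligned to an identical base of Zfp600. In Zfp933 they mark CG dinucleotides.
Zfp600: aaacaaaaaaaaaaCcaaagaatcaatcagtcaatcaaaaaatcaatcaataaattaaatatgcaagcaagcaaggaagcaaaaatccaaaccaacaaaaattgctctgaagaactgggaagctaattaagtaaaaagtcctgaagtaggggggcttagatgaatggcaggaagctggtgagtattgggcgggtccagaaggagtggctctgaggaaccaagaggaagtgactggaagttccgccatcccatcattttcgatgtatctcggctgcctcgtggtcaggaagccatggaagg
Rex2: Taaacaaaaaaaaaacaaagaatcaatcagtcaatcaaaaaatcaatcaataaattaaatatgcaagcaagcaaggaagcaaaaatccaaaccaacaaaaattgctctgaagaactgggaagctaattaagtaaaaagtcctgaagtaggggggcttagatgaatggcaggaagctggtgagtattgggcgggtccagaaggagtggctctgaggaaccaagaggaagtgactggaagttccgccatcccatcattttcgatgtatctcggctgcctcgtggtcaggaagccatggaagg
Zfp979: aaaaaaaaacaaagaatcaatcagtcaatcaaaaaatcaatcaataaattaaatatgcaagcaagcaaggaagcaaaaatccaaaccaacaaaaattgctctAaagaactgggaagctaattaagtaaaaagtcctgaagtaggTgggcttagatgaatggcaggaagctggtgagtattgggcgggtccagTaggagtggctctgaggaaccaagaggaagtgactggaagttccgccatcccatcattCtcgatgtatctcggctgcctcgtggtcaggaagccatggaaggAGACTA
Zfp933: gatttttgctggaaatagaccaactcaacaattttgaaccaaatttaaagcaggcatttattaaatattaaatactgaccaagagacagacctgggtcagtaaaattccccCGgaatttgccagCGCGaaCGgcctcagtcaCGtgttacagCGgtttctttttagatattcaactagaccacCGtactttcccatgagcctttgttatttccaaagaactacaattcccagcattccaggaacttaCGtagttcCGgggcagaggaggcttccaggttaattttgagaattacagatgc
The Zfp600 and Rex2 promoters differed by no substitution and by 2 unpaired bases, 1 in each. Zfp979 had 4 substitutions from Zfp600, and the remaining capitals, at its 3′ end, lie beyond the end of the Zfp600 window.

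Likeness of this kind was common within the cluster. Among the 116 pairs of promoters from different genes, identity ran from 43.3% to 99.7% with a median of 54%, and 37 pairs (31.9%) were at least 80% identical. The 19 promoters of 14 zinc finger genes elsewhere on chromosome 4 gave 166 pairs with a median of 50% and a highest value of 56.7%, so 0 pairs reached 80%. Runs of 50 bases were also compared with the promoters of other genes on any chromosome. A match was found for 21.5% of the runs in the cluster's promoters and 0% in those of the other zinc finger genes. Over all 2053 promoters of chromosome 4 the share was 4.10%. The cluster's promoters were also poorer in G and C, with a median of 42.8%, against 56.7% for the other zinc finger genes and 54.7% for all promoters. They held a median of 4.5 CG dinucleotides, against 19 and 8. Reads from such copies can match several places, and no source used here says how the authors treated them.

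**Figure D1:**
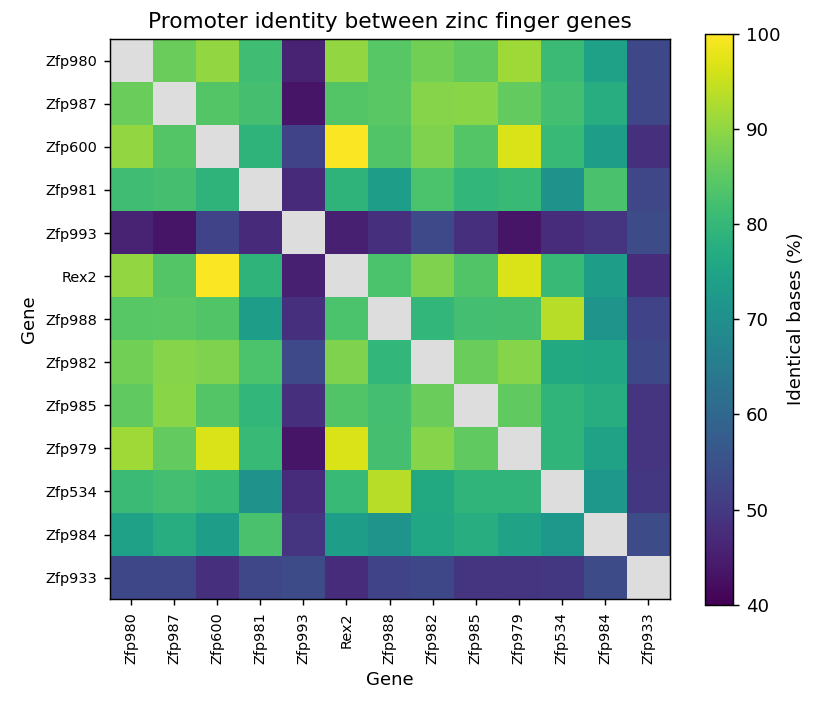
Highest identity (colour, identical bases as % of the 300 bases of a promoter) between the RefSeq promoters of each pair of genes. The 13 zinc finger genes with a promoter in the table are in order of position on both axes. Grey squares are a gene with itself. Zfp600, Rex2 and Zfp979 form the most alike trio, while Zfp993 and Zfp933 reach at most 54% with any other gene shown.

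Every position of the region had a score in every profile. None of the 580 positions was without a value (0%), whereas 642 of the 31301 positions of the chromosome (2.05%) lacked one in at least 1 profile. All 642 lay in 3 runs, namely 609 positions from the first position of the table to 3045000, 30 from 156360000 to its last position, and 3 from 55465000 to 55475000 that were missing in the deletion profiles alone. The nearest of these runs lay 8.465 Mb from the region. The tandem copies were therefore not left blank in the deposited table. No source used here says how the scores were smoothed. A score in a bin therefore does not show that reads were counted in that bin.

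The whole cluster scored early. All 580 bins lay above 0 in each of the 4 profiles (100%), against 43.2% and 45.9% of the remaining bins in controls 1 and 2, and 43.3% and 46.8% in deletion profiles 1 and 2. The mean over the region was 1.84 in control 1, 2.51 in control 2, 1.88 in deletion 1 and 2.77 in deletion 2. The profiles numbered 2 were the higher ones in both genotypes, and the ranges of the genotypes overlapped. The lowest bin of the region still scored 1.29 in control 1, 1.84 in control 2, 1.47 in deletion 1 and 2.19 in deletion 2.

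**Figure D2:**
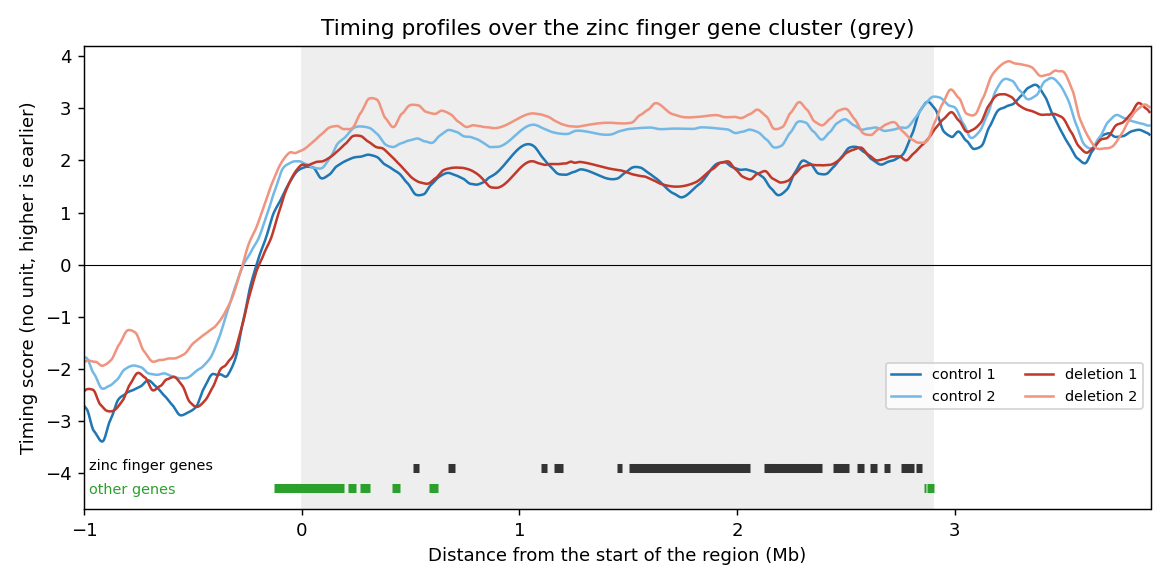
Timing score (vertical axis, no unit) of the 4 profiles along the region (grey) and 1 Mb on either side, against the distance from its first bin in Mb; bars below show zinc finger genes (black) and other protein-coding genes of the region (green). All 4 lines rise through 0 before the region and stay above 1 throughout it, with number 2 mostly above number 1 and both deletion lines below both controls near the far edge.

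The region's median score exceeded that of the rest of the chromosome by 2.72 and 3.01 in control 1 and 2 and by 2.74 and 3.06 in deletion profiles 1 and 2. The mean of the 4 differences was 2.88 ± 0.18 (SD, n = 4), higher in 4 of 4 profiles, with p = 0.13 in an exact two-sided sign-flip permutation test, the smallest p that 4 profiles allow. Among early-replicating sequence the cluster was not at the top. Against the 12641 bins elsewhere that scored above 0 in every profile, the difference of medians was -0.62 and -0.09 in controls 1 and 2, and -0.60 and -0.11 in deletion profiles 1 and 2. This placed the median of the region at percentile 29.9 and 50.3 of those bins in the controls and 30.7 and 51.0 in the deletion profiles. The difference from early bins averaged -0.36 ± 0.29 (SD, n = 4), below 0 in 4 of 4 profiles, with an exact sign-flip p of 0.13.

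The neighbours on the 2 sides differed from the cluster in opposite directions. The median of the region exceeded that of the 2.9 Mb before it by 2.81 ± 0.24 (SD, n = 4; 4 of 4 profiles; exact sign-flip p = 0.13). Against the 2.9 Mb after it, the difference was -0.83 and -0.46 in controls 1 and 2, and -0.90 and -0.33 in deletion profiles 1 and 2, so the far side scored higher in 4 of 4 profiles (exact sign-flip p = 0.13). Over 5 Mb before the region the comparison gave no single direction, at -0.23 and 0.50 in the controls and -0.22 and 0.71 in the deletion profiles (exact sign-flip p = 0.50). In all, 18 such comparisons were computed, and the lowest p after Benjamini-Hochberg adjustment over them was 0.173, so none passed 0.05 and none could.

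The border with late-replicating sequence lay outside the cluster, on its near side. Scores crossed 0 at 144795000 in control 1, 144735000 in control 2, 144805000 in deletion 1 and 144730000 in deletion 2, which is 195 to 270 kb before the first bin. The crossing lay nearer to the region in both profiles numbered 1 than in both numbered 2. The mean crossing of the deletion profiles lay 2.5 kb from that of the controls, against SDs of 42.4 kb in control and 53.0 kb in deletion (n = 2 each; exact two-sided permutation p = 1). The fastest rise over 100 kb was 1.84 in control 1, 1.28 in control 2, 1.55 in deletion 1 and 1.26 in deletion 2. It ended at 144795000 in both profiles numbered 1, and at 144720000 and 144770000 in control 2 and deletion 2.

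The scores were already early at the first bin of the region and rose further within it. At 144700000 the scores were -1.73 and -0.36 in controls 1 and 2, and -1.57 and -0.38 in deletion profiles 1 and 2. At 145000000, the first bin of the region, they were 1.85, 1.97, 1.92 and 2.19 in the same order. Deletion 2 then rose from 2.19, its lowest bin of the region, to 3.20 at 145320000, its highest. On the far side no profile crossed 0 within 1 Mb of the last bin, and the next 500 kb averaged 2.81 and 3.09 in the controls and 2.91 and 3.42 in the deletion profiles. The cluster thus forms the shoulder of a longer early-replicating stretch, with a border on 1 side.

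Within the region the profiles were flat. The SD over its 580 bins was 0.31 in control 1, 0.20 in control 2, 0.24 in deletion 1 and 0.19 in deletion 2, against 2.26 to 2.29 over the rest of the chromosome. When the chromosome was divided into 53 stretches of 2.9 Mb in register with the region, its SD was the lowest in 3 profiles and the third lowest in control 1. The same ranks held among the 10 stretches that had every bin above 0 in every profile. The median step between adjacent bins was 0.0133 and 0.00683 in controls 1 and 2, and 0.00857 and 0.00920 in deletion profiles 1 and 2, against 0.0218, 0.0186, 0.0208 and 0.0215 elsewhere. The log2 ratio of these steps averaged -1.17 ± 0.32 (SD, n = 4), below 0 in 4 of 4 profiles, with an exact sign-flip p of 0.13. Smoothing also makes adjacent bins alike, and its part in the small steps and the flatness was not tested.

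Zinc finger genes and the sequence between them differed by less than the spread of the profiles. Between the first and the last zinc finger gene, the 259 bins that overlap one of these genes minus the 209 that do not gave -0.02 and 0.09 in controls 1 and 2, and -0.02 and 0.06 in deletion profiles 1 and 2. The mean difference was 0.03 ± 0.05 (SD, n = 4; exact sign-flip p = 0.50). The longest stretch without an annotated gene, chr4:145844732-146058773, scored 2.00 and 2.41 in the controls and 1.67 and 2.73 in the deletion profiles. The next longest, chr4:146264827-146445133, scored 1.73, 2.53, 1.90 and 2.70 in the same order. Neither had a late score in any profile. Scores changed smoothly along both stretches, and no read counts show how many of their bins had reads of their own.

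All 17 zinc finger genes had a mean score above 0 in every profile. Of the 19 zinc finger genes elsewhere on the chromosome, 16 did so, 2 were below 0 in every profile and 1 was mixed. The median over the 17 genes was 1.85 and 2.61 in controls 1 and 2, and 1.90 and 2.74 in deletion profiles 1 and 2. Their control means ran from 1.89 to 2.88, with a median of 2.23. The median control mean of the 19 genes elsewhere was 2.45, and these genes ran from Zfp352 at -2.69 and Zfp189 at -1.13 to Zfp593 at 3.14 and Zfp691 at 3.16. The cluster's genes therefore covered a narrow part of the range of the family on this chromosome.

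**Figure D3:**
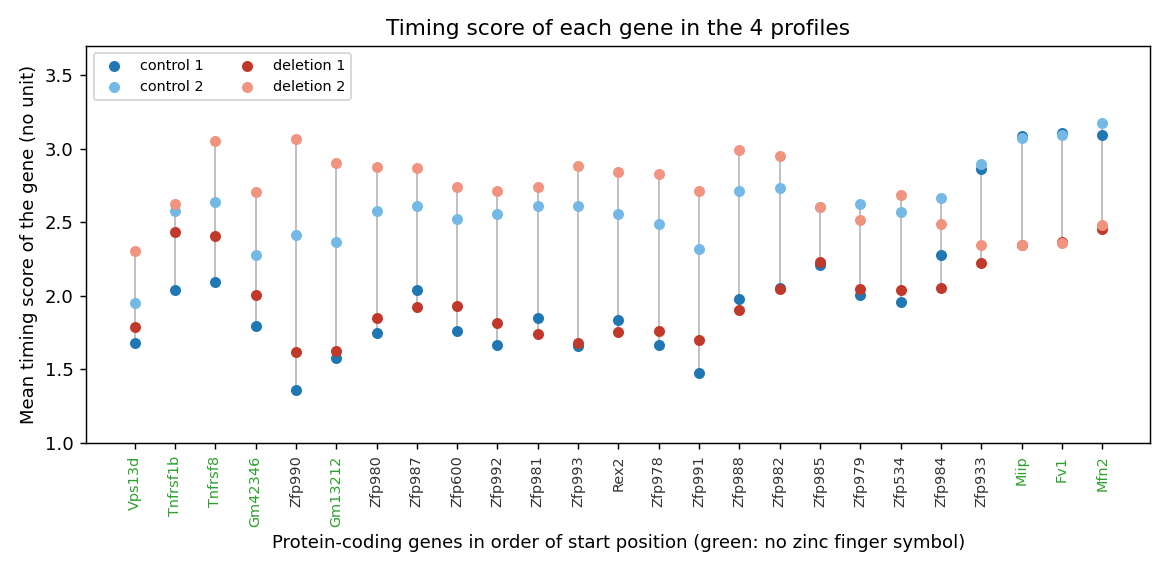
Timing score averaged over each gene (vertical axis, no unit) for the 25 protein-coding genes that overlap the region, in order of start position, with 1 point per profile and a line over their range; green names are genes without a zinc finger symbol. Profiles numbered 2 lie above those numbered 1 for most genes, and at Zfp933, Miip, Fv1 and Mfn2 both deletion points lie below both control points.

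The 4 lowest control means among the zinc finger genes belonged to Zfp990, Zfp991, Zfp978 and Zfp992. Zfp990 scored 1.36 in control 1, 2.41 in control 2, 1.62 in deletion 1 and 3.07 in deletion 2. Zfp991, which lies inside the annotated span of Zfp978, scored 1.48, 2.32, 1.70 and 2.71 in the same order. These genes had wide gaps between the profiles of 1 genotype, and their genotypes overlapped. Zfp978 scored 1.67, 2.49, 1.76 and 2.83, and Zfp992 scored 1.67, 2.55, 1.82 and 2.71, again with overlap. The control means of these 4 genes differed by less than the SD between the 2 controls of any of them.

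Rex2 and Zfp600, which share 1 nearly identical promoter, had similar timing. Rex2 scored 1.84 in control 1, 2.56 in control 2, 1.75 in deletion 1 and 2.84 in deletion 2. Zfp600 scored 1.76, 2.52, 1.93 and 2.74 in the same order. In every profile the 2 genes differed by less than the replicates of either genotype did. Similar scores were not particular to this pair, as Zfp992 scored 1.67, 2.55, 1.82 and 2.71 in the same order. A link between promoter likeness and timing was not tested.

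The 4 highest control means among the zinc finger genes belonged to genes near the far end. Zfp933 scored 2.86 in control 1, 2.90 in control 2, 2.22 in deletion 1 and 2.35 in deletion 2, so both deletion values were below both controls. Zfp984, its neighbour, scored 2.28, 2.66, 2.05 and 2.49 in the same order, with overlapping groups. Zfp985 scored 2.21, 2.61, 2.23 and 2.60, and the genotypes were level within each replicate number. Zfp982 scored 2.05, 2.74, 2.05 and 2.95, level between genotypes in number 1 and higher in deletion in number 2.

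The other protein-coding genes sit at the 2 ends, apart from Gm13212. Vps13d, which encodes a lipid transfer protein needed for mitochondrial turnover, spans the first bins and extends before the region to 144871045. Over all its bins, also those outside the region, it scored 1.68 and 1.95 in the controls and 1.79 and 2.30 in the deletion profiles. Tnfrsf1b, which encodes a receptor for tumour necrosis factor, scored 2.04, 2.58, 2.43 and 2.63 in the order control 1, control 2, deletion 1, deletion 2. Tnfrsf8, the gene of the receptor CD30, scored 2.09, 2.64, 2.41 and 3.06. In these 3 genes the genotypes overlapped and the deletion profile was the higher within each number. The predicted genes Gm42346 and Gm13212, whose symbols name no product, scored 1.80, 2.28, 2.00 and 2.71, and 1.58, 2.37, 1.63 and 2.90.

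At the far end lie 3 genes that are not zinc finger genes by symbol. Fv1, a retrovirus restriction gene derived from the gag gene of an endogenous retrovirus, scored 3.11 in control 1, 3.09 in control 2, 2.36 in deletion 1 and 2.36 in deletion 2. Miip, the gene of the migration and invasion inhibitory protein, scored 3.09, 3.07, 2.34 and 2.35 in the same order. Mfn2, which encodes a mitofusin that joins the outer membranes of mitochondria, scored 3.10, 3.17, 2.46 and 2.48. In all 3 both deletion profiles were below both controls, with a gap much wider than that between replicates. The 3 genes are neighbours and share bins, so they are 1 observation.

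Between genotypes the mean over the whole region differed by less than the replicates did. The controls averaged 2.18 ± 0.48 and the deletion profiles 2.33 ± 0.63 (SD, n = 2 per group), a difference of 0.15, or 0.04 within number 1 and 0.26 within number 2. The exact two-sided permutation test gave p = 0.667, and 2 profiles against 2 cannot go below 0.333. The median difference over all positions of the chromosome was 0.16, close to that of the region. Without control 1 or without deletion 2 the difference was -0.19 or -0.29, and after quantile normalization it was -0.00499, so its direction rested on single profiles and on the scaling. The comparison asks whether timing on the chromosome differs when the enhancer is missing. The region lies 89.5 Mb away from the 3 positions that were missing in the deletion profiles alone.

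The fits across all features made no call. With limma and Benjamini-Hochberg adjustment at 0.05, 0 of 580 positions, 0 of 6 windows of 500 kb and 0 of 25 protein-coding genes of the region were called, where 0% of 30659 positions, 0% of 307 windows and 0% of 1301 genes were called on the chromosome. At an unadjusted p under 0.05, limma gave 0 of 580 positions, 0 of 6 windows and 2 of 25 genes in the region. On the chromosome it gave 299 positions (0.975%), 3 windows (0.977%) and 17 genes (1.31%). The 2 genes of the region were Fv1, at a difference of -0.74 (unadjusted p = 0.0355), and Miip, at -0.73 (unadjusted p = 0.0369), both with an adjusted p of 0.999. They are neighbours that share bins, so they are 1 observation. The window differences were 0.34, 0.20, 0.12, 0.14, 0.18 and -0.11 from the start to the end of the region, each with an SE of 0.40 and a limma adjusted p of 0.989. These SEs and p-values draw on the spread pooled over all features of the chromosome, not on that of the feature alone. At Fv1 the SE was 0.34, although the SD was 0.01 in control and 0.005 in deletion (n = 2 each). The median difference was 0.17 over the positions of the region and 0.16 over all, and 0.10 over its 25 genes against 0.14 over all genes. A p that misses the threshold does not show that the genotypes replicate alike.

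The count of zinc finger genes with a difference above 0 depended on the scaling. Of the 17 genes, 14 (82.4%) had a difference above 0, with a median of 0.10, against 919 of all 1301 genes (70.6%) with a median of 0.14. Once each profile's chromosome median was subtracted, an alternative chosen after seeing the data, 7 of the 17 (41.2%) and 702 of the 1301 (54.0%) lay above 0, and the median of the 17 was -0.00889. The values ran from -0.59 at Zfp933 (SE 0.34) to 0.46 at Zfp990 (SE 0.41), with Zfp984 at -0.20 and Zfp991 at 0.31 next to these ends. All 17 had a limma adjusted p of 0.999. The differences at Zfp990 and Zfp991 turned below 0 when control 1 was left out, at -0.07 and -0.11, or when deletion 2 was, at -0.27 and -0.20. That at Zfp984 became 0.02 without deletion 1.

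Groups that did not overlap were found in 2 short stretches, described here after their values were seen. Both deletion profiles lay above both controls at 20 of the 580 positions (3.45%), against 16% of positions on the chromosome, and below both at another 20 (3.45%), against 5.86%. Among the 25 genes, 0 lay above in this way, against 15.1% of genes on the chromosome, and 4 lay below, against 6.53%, namely Zfp933, Miip, Fv1 and Mfn2. Neighbouring positions share smoothing, so the counts rest on 2 runs.

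The stretch with higher deletion scores lies within Vps13d, at positions 145035000 to 145130000. It scored 1.75 in control 1, 1.90 in control 2, 1.98 in deletion 1 and 2.47 in deletion 2. Deletion 1 exceeded control 2 by little, and the difference of 0.40 was 0.23 within number 1 and 0.58 within number 2. It was 0.16 without deletion 2, 0.65 without deletion 1 and 0.23 after quantile normalization. The bins of the stretch were chosen for both deletion profiles above both controls, so leaving out 1 profile could not change the sign. Across the 102 bins before the first zinc finger gene, the deletion profile was above the control of the same number at 102 bins in both numbers, against 59.2% and 72.3% of bins in the rest of the chromosome for number 1 and 2. After subtraction of each profile's chromosome median, it was above at 95 bins (93.1%) in number 1 and 90 (88.2%) in number 2. The share over the rest of the chromosome after this subtraction is not given here, so these counts have no background. The 102 bins share smoothing and are 1 stretch.

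The stretch with lower deletion scores is the far edge, at positions 147800000 to 147920000, of which 20 of 25 bins lie in the region. Those 20 bins scored 2.91 in control 1, 2.98 in control 2, 2.29 in deletion 1 and 2.39 in deletion 2. The controls were level with each other, as were the deletion profiles, and the groups were well apart. The controls averaged 2.94 ± 0.05 and the deletion profiles 2.34 ± 0.07 (SD, n = 2 per group), and the difference of -0.61 was -0.62 within number 1 and -0.59 within number 2. Over all 25 bins the difference was -0.57. When any 1 profile was left out the difference over the 20 bins ran from -0.66 to -0.56, and it was -0.72 after median centring and -0.78 after quantile normalization. The stretch was chosen for bins where both deletion profiles lie below both controls, so leaving out 1 profile could not change the sign. No test is read from it.

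The profiles showed how the edge differed. At 147700000 the scores were 1.98 and 2.58 in controls 1 and 2, and 2.07 and 2.72 in deletion profiles 1 and 2. At 147850000 they were 3.01 and 3.01 in the controls but 2.29 and 2.34 in the deletion profiles. At 148000000 the order no longer held, at 2.49 and 3.02 in the controls and 2.87 and 3.30 in the deletion profiles. Between 147700000 and 147850000 both controls and deletion 1 thus rose while deletion 2 fell, and both deletion profiles were higher again at 148000000.

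**Figure D4:**
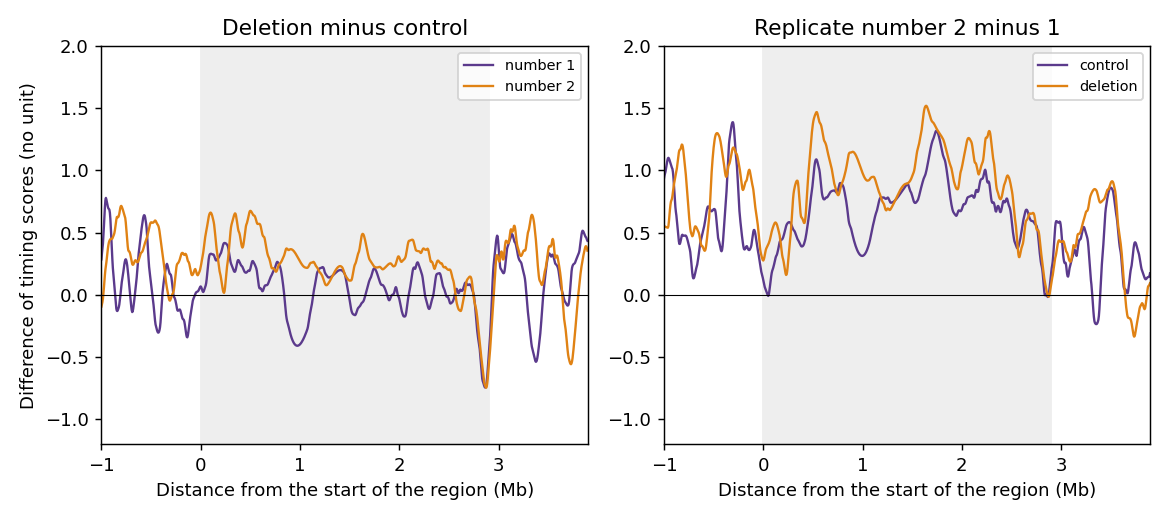
Left, deletion minus control score within each replicate number, and right, number 2 minus number 1 within each genotype, against the distance from the first bin in Mb, with the region in grey. Both lines on the left dip below -0.7 near the far edge, and both lines on the right stay near or above 0 in the region, with means of 0.67 in control and 0.89 in deletion cells.

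The largest spread in the cluster was between the replicate numbers. Control 2 exceeded control 1 by 0.67 on average, at 572 of 580 bins, and deletion 2 exceeded deletion 1 by 0.89, at 576 bins. Over the rest of the chromosome these gaps averaged 0.29 and 0.43. Among the 53 stretches of 2.9 Mb the region had the fourth largest gap in both genotypes. Among the 10 stretches that were early throughout it had the largest, where the 9 others ran from 0.12 to 0.37 in control and from 0.10 to 0.58 in deletion cells.

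The gap varied along the region. By 500 kb windows from the start of the region it was 0.40, 0.74, 0.70, 0.94, 0.79 and 0.42 in control cells, and 0.59, 1.11, 0.84, 1.20, 1.06 and 0.41 in deletion cells. The last of these windows also holds zinc finger genes, among them Zfp985, Zfp984 and Zfp933. In the 10 bins after the last zinc finger gene the gap was 0.03 and 0.02, and in the 500 kb just before the region it was 0.63 and 0.96. The median SD per bin within a group was 0.52 in control and 0.65 in deletion cells, against 0.28 and 0.36 over the rest of the chromosome and 0.20 and 0.32 over early bins elsewhere. The mean gap of 0.78 over both genotypes became 0.30 once each profile's chromosome median was subtracted, and 0.44 after quantile normalization.

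The shape of the profile was also less shared than in most other stretches of the chromosome. Across the 580 bins, which are not independent, Pearson's r was 0.50 between the controls and -0.25 between the deletion profiles, against 0.98 and 0.97 over the rest of the chromosome and 0.94 and 0.85 over early bins elsewhere. Between genotypes it was 0.72 for number 1 and 0.28 for number 2. Among the 53 stretches the value between the deletion profiles was the lowest and that between the controls the third lowest. The region also had the least variation over bins in 3 of 4 profiles, and the part of this in the low r was not tested.

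**Figure D5:**
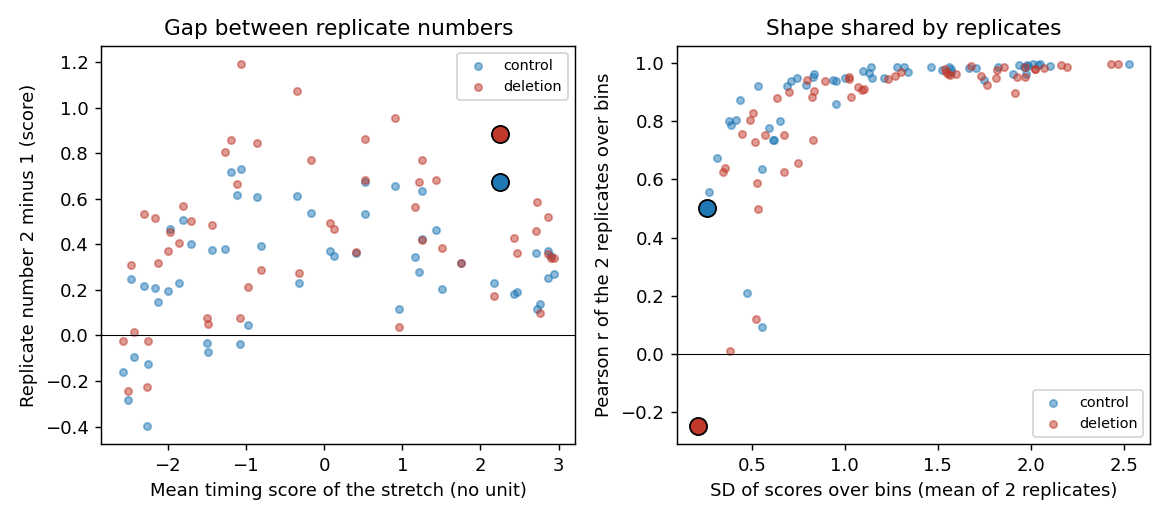
Each small point is 1 of the other 52 stretches of 2.9 Mb on chromosome 4 in control (blue) or deletion (red) cells, and the large outlined points are the region. Left, mean score of number 2 minus number 1 against the mean score of the stretch; right, Pearson's r between the 2 replicates over bins against the SD of scores over bins; the region lies at gaps of 0.67 and 0.89 and at r of 0.50 and -0.25.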

How the data were processed

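The members and gene lists were chosen with earlier results of these data known. The deposited values are a timing score per 5 kb position, early against late, scaled by the authors to a common interquartile range per the file name. The log base, smoothing and treatment of reads that match several places are not given in the sources used here. Bowtie2, SAMtools, bedtools and mm10 are named in the submitters' processing notes, without versions. Positions were read as bin starts.

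A gene's score is the mean over bins that overlap it, which at Vps13d and Mfn2 includes bins outside the region. A zinc finger gene has a symbol that starts with Zfp, Znf, Zscan or Zbtb, or is Rex2. The planned search of descriptions and proteins was not made, because the tables used here hold neither. Named genes were Rex2, Zfp600, the region's other protein-coding genes, its zinc finger genes with the 4 highest and 4 lowest control means and the 2 highest and 2 lowest differences, and the 2 highest and 2 lowest zinc finger genes elsewhere. Genes named with their promoters alone were chosen by identity.

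Genotypes were compared with limma 3.58.1 (lmFit, eBayes; R 4.3.3) over 30659 positions, 307 windows of 500 kb and 1301 genes, two-sided, Benjamini-Hochberg adjusted, and by exact permutation over profiles. The fits were tested on simulated data with independent features of 1 common spread. At a simulated difference of 1 they recovered 4% of changed positions, 0% of windows and 50.5% of genes. At a difference of 2 they recovered 67.5%, 96.7% and 100% in the same order. Differences of the size seen in the region could therefore be missed. A border needed 10 bins on either side of 0, within 1 Mb. Promoters were aligned with Biopython 1.88, and identity is the share of the 300 bases of a promoter that align to an identical base. The read depth is unknown, and 2 profiles per group limit the precision. Alternatives were median centring, quantile normalization, limma's trend and robust options, a replicate block and leaving out each profile.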

Additional observations from a re-analysis of the deposited data

How the results depend on the processing

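Across 36 results, 296 alternative values were computed, of which 266 kept their direction and their side of the threshold or stayed within the spread of the profiles. Some of the 266 could not change, so the count is no measure of robustness. Leaving out bins within 25 kb of positions without a score, for example, removed none from the region. The mean difference of the region, 0.15 between genotypes, became -0.00499 after quantile normalization and ran from -0.29 to 0.59 when each profile was left out in turn. It was also 0.15 with the replicate block, which cannot change it where each number has 1 profile of each genotype. Same-numbered profiles deviated together, with a correlation of 0.64 over all positions and 0.75 in the region, but 2 pairs and a shared number do not show pairing. With the block limma called 785 positions of the chromosome (2.56%), 0 windows and 0 genes, and none of these positions lay in the region. Without deletion 2 it called 57 positions and 1 window, and without deletion 1 it called 4 genes, none in the region. The difference between the crossing positions ran from -35 to 40 kb when each profile was left out. Against other bins above 0 the region's excess of 2.88 over the chromosome became -0.36, a comparison added after seeing the data. The mean gap between replicate numbers, 0.78, was 0.30 after median centring and 0.44 after quantile normalization, both added after seeing the data. Among the differences of Zfp933, Zfp984, Zfp990 and Zfp991, the 4 recomputed gene by gene, the sign changed in 5 cases, all when 1 profile was left out, with ranges of -0.42 to 0.016 for Zfp984, -0.27 to 1.18 for Zfp990 and -0.20 to 0.81 for Zfp991. Median centring, counted after seeing the data, left 7 of the 17 zinc finger genes with a difference above 0 in place of 14. Where a value changed, the cause was not tested. Without read counts, the depth of any score is unknown.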
